A study of Homo sapiens with 24 samples.

Results

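The genes described here are 9 genes of the BMP and TGF-β pathway, namely ID1, ID2, ID3 and ID4, the inhibitory SMAD genes SMAD6 and SMAD7, the signal-carrying SMAD3, and the ligand genes TGFB1 and TGFB2. They were taken by name from a table of 60675 Ensembl genes counted in 24 RNA-sequencing libraries. All 9 were found in the table. A filter on low counts over the 24 libraries kept 8 of the 9, and 7 of them (ID1, ID2, ID3, SMAD6, SMAD7, SMAD3 and TGFB1) had enough counts to be tested in each of 16 comparisons, while ID4 and TGFB2 were tested in none.

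The cells were MIA PaCa-2, a line derived from a human pancreatic carcinoma. All groups carried the pCW57 Tet-On vector, with a doxycycline-dependent transactivator and its TRE promoter, as well as a lentiviral fluorophore. In C/EBPδ-inducible cells the vector held the CEBPD cDNA, which encodes the transcription factor C/EBPδ, and the fluorophore was mVenus; these cells were a pool of 3 clones. In CTRL cells the vector lacked the cDNA and the fluorophore was mCherry. Both lines were collected after 0, 8, 24 and 48 h with doxycycline at 2 µg/mL, with 3 wells for each of the 8 groups; the sample labels list the dose at 0 h as well, while the study's methods describe a condition without doxycycline, and the 0 h cells were taken as untreated. Comparisons of the lines at one time hold doxycycline constant, whereas comparisons with 0 h within a line change doxycycline and time in culture together, and these cannot be told apart in CTRL cells or in C/EBPδ-inducible cells on their own. The lines also differ in clonal origin and in fluorophore, which cannot be told apart from the CEBPD construct at a given time.

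ID proteins are helix-loop-helix proteins without a DNA-binding region. They pair with E proteins such as TCF3 and TCF12, hold them off E-box sequences, and are known as early targets of BMP signalling through SMAD1 and SMAD5. TGF-β ligands act through receptors that phosphorylate SMAD2 and SMAD3, which join SMAD4 and enter the nucleus. SMAD6 and SMAD7 are induced by the same signals and hold back the receptors, so that their transcripts are used as readouts of the feedback arm of the pathway.

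The promoters of 4 of the genes are shown because their changes over time differed between the lines in at least one of the tests described further on (ID1, ID2, ID3 and SMAD6). Each is the stretch of 250 bases before the RefSeq transcription start in GRCh38.p14, 5′ to 3′ on the strand of the gene, and capitals mark matches on either strand to TTNNGNAA, the core bound by C/EBP factors, or to GGCGCC, a GC element of BMP-responsive ID promoters. ID1 lies at chr20:31605039-31605288 on the + strand, ID2 at chr2:8681806-8682055 (+), ID3 at chr1:23559502-23559751 (-) and SMAD6 at chr15:66701986-66702235 (+).
ID1: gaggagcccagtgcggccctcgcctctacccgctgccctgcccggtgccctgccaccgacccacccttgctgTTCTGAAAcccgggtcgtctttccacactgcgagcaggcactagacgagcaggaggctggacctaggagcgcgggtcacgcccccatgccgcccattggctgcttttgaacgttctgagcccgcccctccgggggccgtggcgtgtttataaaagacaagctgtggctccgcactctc
ID2: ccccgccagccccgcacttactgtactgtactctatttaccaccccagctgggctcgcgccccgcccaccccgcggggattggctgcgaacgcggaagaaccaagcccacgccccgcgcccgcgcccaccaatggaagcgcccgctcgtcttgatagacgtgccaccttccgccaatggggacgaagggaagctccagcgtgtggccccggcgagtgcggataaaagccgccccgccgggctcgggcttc
ID3: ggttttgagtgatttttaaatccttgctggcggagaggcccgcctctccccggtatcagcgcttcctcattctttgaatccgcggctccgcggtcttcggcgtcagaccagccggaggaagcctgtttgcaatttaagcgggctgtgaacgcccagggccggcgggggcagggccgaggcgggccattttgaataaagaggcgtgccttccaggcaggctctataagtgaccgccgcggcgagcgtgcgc
SMAD6: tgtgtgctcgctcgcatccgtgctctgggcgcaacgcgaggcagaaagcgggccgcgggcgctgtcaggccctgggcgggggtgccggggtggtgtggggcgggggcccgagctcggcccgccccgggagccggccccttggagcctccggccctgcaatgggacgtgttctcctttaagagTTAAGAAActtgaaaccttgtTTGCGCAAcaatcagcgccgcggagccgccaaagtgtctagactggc

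The ID1 promoter held 1 C/EBP core (TTCTGAAA, bases -178 to -171 counted from the start) and the SMAD6 promoter held 2 (TTAAGAAA at -68 to -61 and TTGCGCAA at -47 to -40). None was found in the window of ID2, ID3, ID4, SMAD7, SMAD3, TGFB1 or TGFB2. A core of this kind was present in 33.2% of 35116 promoter windows of the same length, so that a match is common. GGCGCC, found in 16.4% of windows, occurred in 2 copies in the SMAD3 window and in no other of the 9. The SMAD box CAGAC (38% of windows) occurred once each in ID3 and ID4 and in 2 copies each in SMAD7 and TGFB2. The E-box CANNTG (61.8% of windows) was present in ID2, ID4, SMAD7, SMAD3 and TGFB2, and the E-box of TGFB2 shares 1 base with its second SMAD box. The TGFB1 window held none of the 4 motifs. These matches describe letters and not bound sites. The ID2 start used by RefSeq lies 3211 bases inside the GENCODE gene, and SMAD3 and SMAD7 have 5 and 3 RefSeq starts, of which the one nearest to the GENCODE start was used.

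In GRCh38 the GENCODE genes lie at chr20:31605283-31606515 (ID1, + strand), chr2:8678845-8684461 (ID2, +), chr1:23557926-23559501 (ID3, -), chr6:19837370-19842197 (ID4, +), chr15:66702236-66782849 (SMAD6, +), chr18:48919853-48950965 (SMAD7, -), chr15:67063763-67195173 (SMAD3, +), chr19:41301587-41353922 (TGFB1, -) and chr1:218345336-218444619 (TGFB2, +). All are protein-coding. The exons considered here are those of GENCODE, while the study names an Ensembl release for its own processing, so the exons counted may differ from these. Exons of TGFB1 overlap those of HNRNPUL1 on the other strand, a ribonucleoprotein gene with group means between 497 and 610 CPM (counts scaled to library size with TMM factors), and reads from shared exons cannot be told apart if strand was not used. ID2 likewise overlaps ID2-AS1, whose group means were between 0.13 and 0.64 CPM. The genes that overlap SMAD3 and TGFB2 were at or near 0.

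Totals ranged from 12731237 to 22598595 counts per library with a median of 18959363.5, and 3 counts, taken as the floor of detection, corresponded to between 0.13 and 0.236 CPM. CEBPD itself had group means between 1.90 and 4.02 CPM in CTRL cells, 21.5 CPM in untreated C/EBPδ-inducible cells and 249, 307 and 204 CPM after 8, 24 and 48 h, so that the 0 h inducible cells already held more CEBPD transcript than CTRL cells. Of the epithelial markers KRT8, KRT18, KRT7, KRT19, EPCAM and CDH1, the means of KRT8, KRT18 and KRT19 were 21.0-fold, 10.2-fold and 11.3-fold higher in CTRL cells at 0 h. KRT7 (0.637 CPM in CTRL and 0.748 CPM in inducible cells), EPCAM (1.14 and 0.954 CPM) and CDH1 (1.04 and 0.121 CPM) were low in both lines at 0 h. The mean of KRT7 was the higher one in inducible cells at each time, and that of CDH1 was so after doxycycline, at 4.75 against 0.708 CPM at 8 h and 3.73 against 1.03 CPM at 48 h. The summed level of the 6 markers ranged from 2066 to 2950 CPM in CTRL libraries and from 116 to 208 CPM in inducible libraries. VIM, a mesenchymal marker, was between 5348 and 7001 CPM in every library, and CDKN2A, which is deleted in MIA PaCa-2 cells, did not exceed 0.895 CPM. Immune markers (PTPRC, CD3E, CD68 and CD14) summed to at most 2.53 CPM and endothelial markers (PECAM1, VWF and CDH5) to at most 2.72 CPM, while DCN and LUM were near 0 among the fibroblast markers and COL1A2 had group means between 143 and 649 CPM. The difference in KRT8, KRT18 and KRT19 moved with the line at each of the 4 times, that in KRT7 ran the other way, and their part in those results was not tested. The replicates stood furthest apart at 8 h, where the mean chi-square of the counts per gene reached 16.7 between CTRL replicates 1 and 3 and 12.5 between inducible replicates 2 and 3, against at most 3.51 for any pair at 0 h, and inducible replicate 3 at 8 h was the shallowest library. Wells seeded in parallel are the replicates, so that the error terms cover the spread between wells of one experiment.

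**Figure D1:**
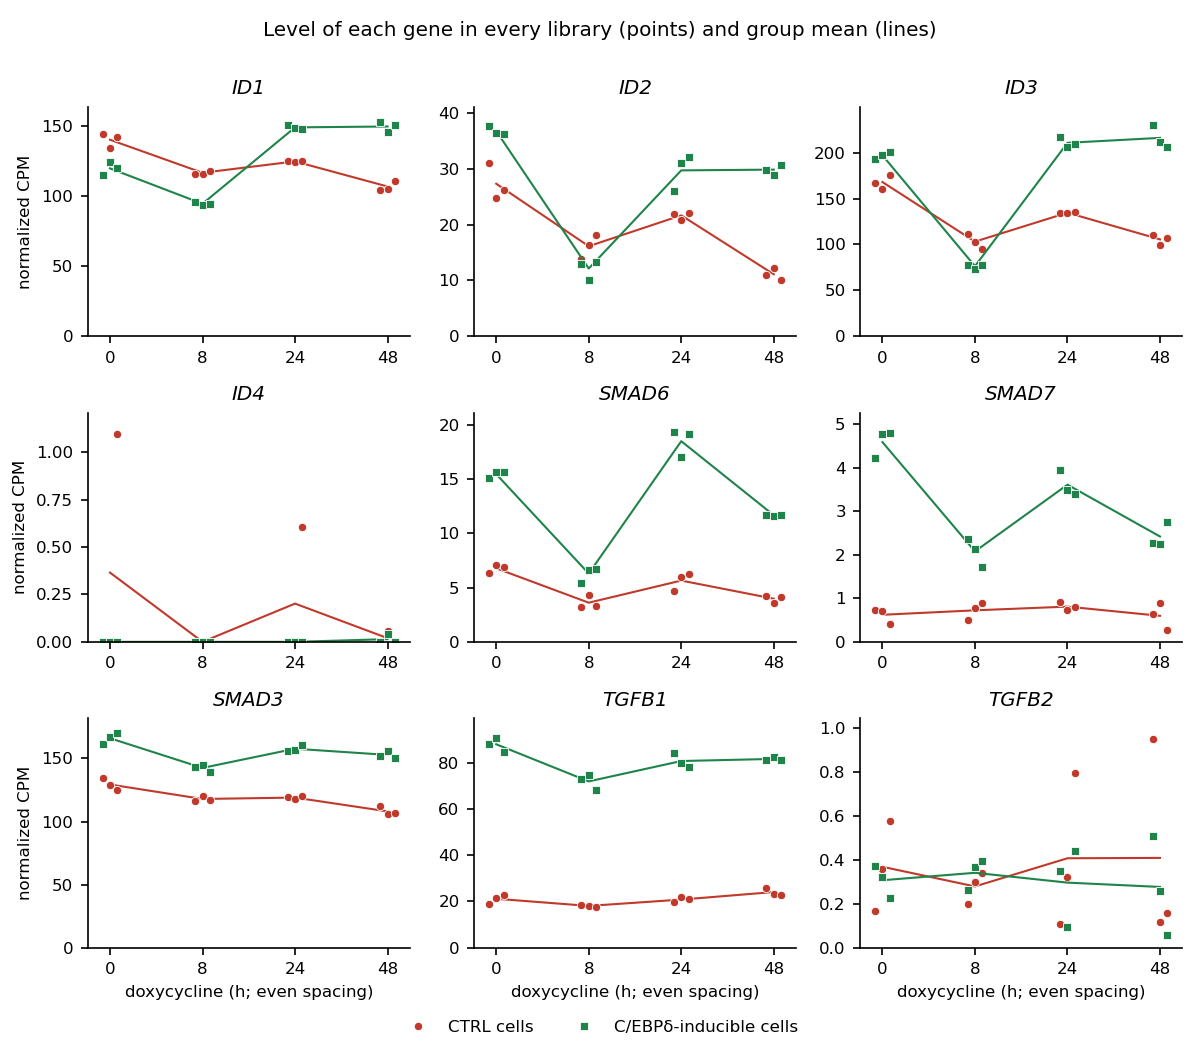
Normalized CPM of each of the 9 genes (y axis, linear, from 0) against time with doxycycline (x axis, h, evenly spaced) in CTRL cells (red circles) and C/EBPδ-inducible cells (green squares). Points are the 24 libraries and lines join group means. The means of ID1, ID2, ID3 and SMAD6 are lower at 8 h than at 0 h in both lines, and TGFB1 is at 68.1 CPM or more in inducible libraries and at 26.0 CPM or less in CTRL libraries.

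The ligand gene TGFB1 was higher in C/EBPδ-inducible cells at each time. In CTRL cells at 0 h it was at 18.9, 21.7 and 22.9 CPM, and in C/EBPδ-inducible cells at 88.5, 91.0 and 85.1 CPM. The groups stand far apart, with a log2 fold change of 2.05 ± 0.058 (SE), or 4.14-fold (edgeR's quasi-likelihood test, Benjamini-Hochberg adjusted p = 2.84e-16). With doxycycline the inducible cells were at 73.3, 74.9 and 68.1 CPM at 8 h, at 84.3, 80.3 and 78.3 CPM at 24 h and at 81.3, 82.9 and 81.4 CPM at 48 h. CTRL cells were at 18.3, 18.1 and 17.8 CPM, at 19.6, 22.0 and 20.9 CPM and at 26.0, 23.3 and 23.0 CPM at the same times. No library of one line reached the range of the other, and the log2 difference was 1.99 ± 0.068 at 8 h, 1.95 ± 0.051 at 24 h and 1.76 ± 0.064 at 48 h. HNRNPUL1, which shares exonic bases with TGFB1, differed by 0.21 ± 0.025 at 0 h in the same direction. In bulk RNA, more cells that express a gene and more transcript per cell cannot be told apart, and this holds for every level given here.

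The other ligand gene of the set, TGFB2, was barely detected. Its counts ranged from 1 to 19 per library, with group means between 0.28 and 0.41 CPM and overlapping ranges in all 8 groups. It did not have enough counts for a test within any pair of groups, and a difference was not detectable at this depth.

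SMAD3, which carries the TGF-β signal to the nucleus, was moderately higher in C/EBPδ-inducible cells at each time. At 0 h it was at 134, 129 and 125 CPM in CTRL cells and at 161, 167 and 169.9 CPM in inducible cells. The log2 difference was 0.35 ± 0.036 (edgeR, adjusted p = 7.52e-08), or 1.28-fold, with no overlap of the libraries. It was 0.27 ± 0.049 at 8 h, 0.40 ± 0.035 at 24 h and 0.50 ± 0.048 at 48 h, and each passed the cut-off, an FDR of 0.01. CTRL cells at 48 h, with 112, 106 and 106 CPM, had the lowest level of the 8 groups.

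The inhibitory SMAD genes differed more than SMAD3. SMAD7, which blocks TGF-β and BMP receptors, was at 0.73, 0.72 and 0.42 CPM in CTRL cells at 0 h and at 4.21, 4.76 and 4.78 CPM in inducible cells. The CTRL values rest on 8 to 13 counts per library, against 79 to 104 counts in the inducible cells. The log2 fold change was 2.88 ± 0.22, or 7.34-fold (edgeR, adjusted p = 1.54e-09). SMAD7 stayed higher in inducible cells, by 1.55 ± 0.27 at 8 h, 2.15 ± 0.21 at 24 h and 2.02 ± 0.31 at 48 h on the log2 scale, and the groups did not overlap at any time. SMAD6, which acts mainly on BMP receptors, was at 6.33, 7.12 and 6.89 CPM in CTRL cells and at 15.1, 15.7 and 15.6 CPM in inducible cells at 0 h. Its log2 fold change was 1.18 ± 0.087 (edgeR, adjusted p = 8.69e-10), and the difference was 0.80 ± 0.16 at 8 h, 1.69 ± 0.099 at 24 h and 1.54 ± 0.11 at 48 h. The 8 h difference no longer passed without inducible replicate 2 (log2 fold change 0.75, edgeR adjusted p = 0.0119).

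The ID genes, which encode the inhibitors of E proteins, did not share one direction between the lines. ID1 at 0 h was at 144, 135 and 142 CPM in CTRL cells and at 115, 124 and 120.3 CPM in inducible cells, and was lower in the latter (log2 fold change -0.24 ± 0.037, edgeR adjusted p = 2.13e-05). ID3 was higher in inducible cells, at 193, 198 and 201 CPM against 167, 161 and 176 CPM (0.22 ± 0.036, adjusted p = 2.95e-05 by edgeR). ID2 was higher as well, at 37.8, 36.4 and 36.3 CPM against 31.0, 24.8 and 26.3 CPM (0.42 ± 0.068, adjusted p = 2.99e-05 by edgeR). All 3 differences are small beside that of TGFB1, and none of the ranges overlap.

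At 8 h all 3 ID genes had lower means in inducible cells, and ID1 (-0.31 ± 0.049) and ID3 (-0.44 ± 0.065) passed the cut-off, whereas ID2 did not (-0.42 ± 0.13, edgeR adjusted p = 0.0219). At 24 h all 3 were higher in inducible cells, by 0.25 ± 0.034 for ID1, 0.46 ± 0.070 for ID2 and 0.64 ± 0.034 for ID3. At 48 h the estimated differences were larger, with 0.48 ± 0.050 for ID1, 1.43 ± 0.085 for ID2 and 1.03 ± 0.057 for ID3. ID2 at 48 h was at 11.0, 12.2 and 10.1 CPM in CTRL cells and at 29.9, 29.0 and 30.8 CPM in inducible cells, a 2.69-fold difference (edgeR, adjusted p = 9.55e-09).

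Across the set, 7 of 7 tested genes passed the cut-off between the lines at 0 h, 6 higher in inducible cells and 1 (ID1) lower. Of all 15317 genes tested, 43.9% passed, 20% higher and 23.9% lower. At 8 h 6 of 7 passed, 4 higher and 2 lower, against 31.8% of all genes tested (14.3% higher, 17.4% lower). At 24 h 7 of 7 were higher, against 46.9% of genes called (21.5% higher, 25.3% lower), and at 48 h again 7 of 7 were higher, against 38.3% called (17.6% higher, 20.7% lower). The median log2 difference of the 7 genes, with its sign, was 0.42, 0.27, 0.64 and 1.43 at the 4 times, and that of all genes tested was at most 0.01. The median absolute log2 difference was 0.42, 0.44, 0.64 and 1.43 for the 7 genes. For all genes tested it was 0.25, 0.27, 0.26 and 0.27. With so large a part of the transcriptome past the cut-off between the lines, the sizes and directions carry more than the count. No alternative setting turned the direction of a called difference between the lines.

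**Figure D2:**
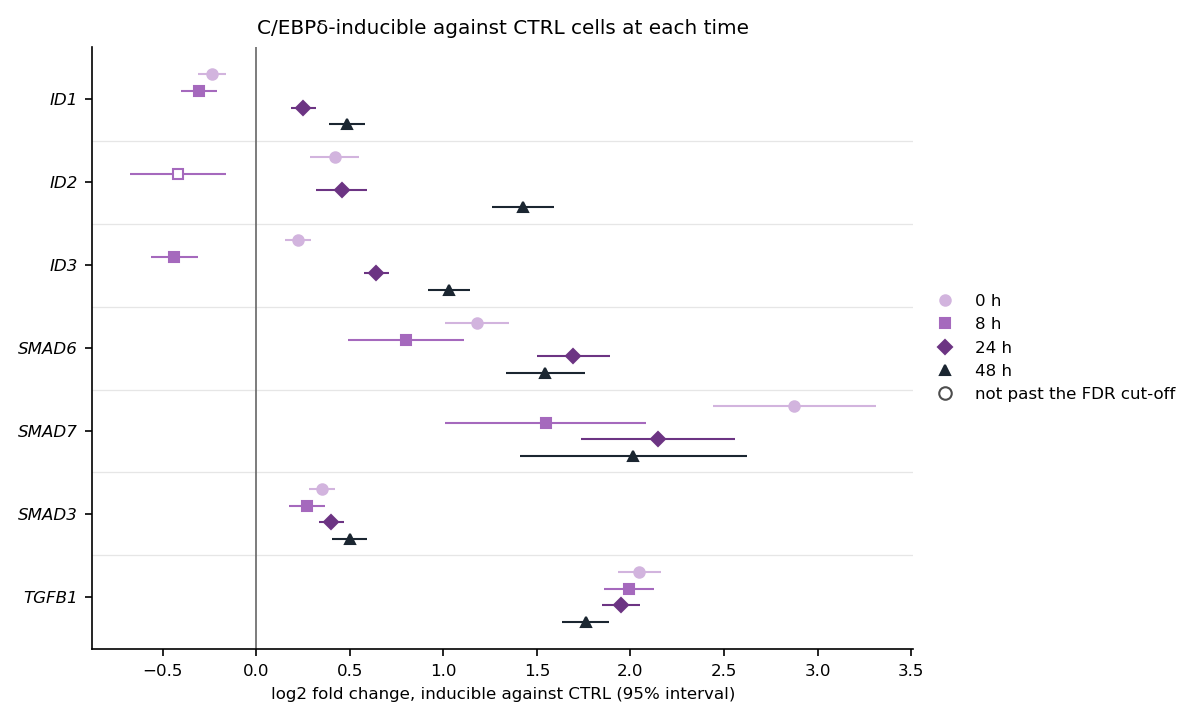
Log2 fold change of C/EBPδ-inducible against CTRL cells (x axis) for the 7 tested genes (y axis) at 0, 8, 24 and 48 h, with 95% normal intervals from the edgeR standard error; filled symbols passed the FDR cut-off. TGFB1, SMAD7, SMAD6 and SMAD3 lie right of 0 at all 4 times, while ID1 lies left of 0 at 0 and 8 h and right of 0 at 24 and 48 h.

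In CTRL cells, the comparison with 0 h shows what happened to these genes without the CEBPD cDNA. ID3 was at 167, 161 and 176 CPM at 0 h and at 111, 102 and 95.6 CPM at 8 h, where it fell by 0.68 ± 0.066 on the log2 scale (edgeR, adjusted p = 2.59e-04). ID2 went from 31.0, 24.8 and 26.3 CPM to 13.8, 16.4 and 18.2 CPM (log2 fold change -0.74 ± 0.12, edgeR adjusted p = 0.00581), and SMAD6 from 6.33, 7.12 and 6.89 CPM to 3.20, 4.31 and 3.32 CPM (-0.89 ± 0.14, edgeR adjusted p = 0.00534). The libraries of both times do not overlap for these 3 genes. ID1 was at 116, 116 and 118 CPM at 8 h, below its 0 h libraries, and did not pass (-0.24 ± 0.052, edgeR adjusted p = 0.0274). The calls of ID2 and SMAD6 were each lost in 4 of the 6 fits that left out a library (CTRL 0 h replicates 1, 2 and 3 for both, CTRL 8 h replicate 2 for ID2 and replicate 3 for SMAD6), with edgeR adjusted p values of up to 0.0305 for ID2 and 0.0385 for SMAD6. SMAD7, SMAD3 and TGFB1 did not pass at 8 h, with log2 fold changes of 0.24 ± 0.36, -0.11 ± 0.053 and -0.20 ± 0.087.

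The estimated declines of the ID genes in CTRL cells were smaller at 24 h than at 8 or 48 h. At 24 h ID3 was at 134, 134 and 136 CPM (-0.32 ± 0.037, edgeR adjusted p = 5.07e-06), ID1 at 126, 124 and 125 CPM (-0.17 ± 0.035) and ID2 at 22.0, 20.9 and 22.2 CPM (-0.33 ± 0.072). The 24 h calls of ID1 and ID2 were lost in 4 and 5 of 6 fits without a library, which means without CTRL 0 h replicate 3 or any CTRL 24 h replicate for both, and without CTRL 0 h replicate 1 for ID2, with edgeR adjusted p values of up to 0.0339 and 0.0412. The ID2 call was also lost in the model of all 24 libraries (-0.34, edgeR adjusted p = 0.0366). SMAD6 (-0.25 ± 0.12), SMAD7 (0.39 ± 0.33), SMAD3 (-0.12 ± 0.036) and TGFB1 (-0.02 ± 0.074) did not pass at 24 h. At 48 h ID2 reached 11.0, 12.2 and 10.1 CPM, its lowest level in these cells, and was 2.48-fold below 0 h (log2 fold change -1.31 ± 0.10, edgeR adjusted p = 1.48e-06). ID3 was at 111, 99.3 and 107 CPM (-0.68 ± 0.056), ID1 at 105, 105 and 111 CPM (-0.40 ± 0.050) and SMAD6 at 4.19, 3.58 and 4.16 CPM (-0.77 ± 0.13), and SMAD3 fell by 0.26 ± 0.050 on the log2 scale. These 5 kept an edgeR adjusted p of at most 0.00913 without any one library. TGFB1 (0.18 ± 0.090) and SMAD7 (-0.07 ± 0.43) did not pass.

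In all, 3 of 7 genes fell in CTRL cells at 8 h and none rose, against 1.7% of genes tested (0.905% higher, 0.793% lower). At 24 h 3 of 7 fell, against 6.06% of genes called (2.81% higher, 3.25% lower). At 48 h 5 of 7 fell, against 30% called (15.2% higher, 14.7% lower). In a fit with a replicate block, built from numbers that the labels give but do not explain, 1 of 7 passed at 8 h (ID3), and the counts at 24 and 48 h were again 3 and 5.

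In C/EBPδ-inducible cells, 8 h with doxycycline was marked by lower levels of all 7 tested genes. ID3 went from 193, 198 and 201 CPM to 77.4, 73.7 and 77.7 CPM, a 2.60-fold fall (log2 fold change -1.38 ± 0.034, edgeR adjusted p = 1.39e-17). ID2 went from 37.8, 36.4 and 36.3 CPM to 13.0, 10.1 and 13.3 CPM, or 3.08-fold down (-1.62 ± 0.078, edgeR adjusted p = 7.67e-13). ID1 moved less than its relatives, from 115, 124 and 120.3 CPM to 96.1, 93.6 and 94.3 CPM (-0.35 ± 0.033, edgeR adjusted p = 3.07e-08).

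Both feedback genes fell with them. SMAD6 went from 15.1, 15.7 and 15.6 CPM to 5.47, 6.66 and 6.75 CPM (-1.31 ± 0.098, edgeR adjusted p = 7.55e-10), and SMAD7 from 4.21, 4.76 and 4.78 CPM to 2.37, 2.13 and 1.73 CPM (-1.12 ± 0.17, edgeR adjusted p = 1.15e-05). SMAD3 (-0.23 ± 0.032) and TGFB1 (-0.29 ± 0.038) fell by smaller amounts. The ranges at 0 and 8 h did not overlap for any of the 7 genes, and no call was lost without inducible replicate 3 at 8 h or any other library. Of all genes tested in this comparison, 30.5% were called, 14.6% higher and 15.8% lower, and the median absolute log2 change was 0.18, against 1.12 for the 7 genes.

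At 24 h the levels in inducible cells were closer to those at 0 h, and ID1 had passed them. ID1 was at 151, 149 and 148 CPM, above all 0 h libraries (0.32 ± 0.036, edgeR adjusted p = 2.60e-07). ID2 was at 26.2, 31.1 and 32.1 CPM, still below 0 h (-0.30 ± 0.064, edgeR adjusted p = 0.00101), and this call was lost in the model of all 24 libraries (edgeR adjusted p = 0.0204). ID3, at 217, 206 and 209 CPM, had a log2 change of 0.10 ± 0.033 and SMAD6, at 19.3, 17.1 and 19.1 CPM, one of 0.26 ± 0.074, and neither passed (edgeR adjusted p = 0.0275 and 0.0105). SMAD7 (3.95, 3.48 and 3.39 CPM), SMAD3 and TGFB1 did not pass either, with -0.35 ± 0.14, -0.07 ± 0.034 and -0.12 ± 0.041. Thus 2 of 7 genes were called, 1 in each direction, against 15.5% of all genes (7.33% higher, 8.14% lower).

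At 48 h the genes parted. ID1 was above 0 h, at 153, 146 and 151 CPM (0.31 ± 0.036, edgeR adjusted p = 7.46e-08). ID3, at 230.2, 212 and 207 CPM, was 1.09-fold above 0 h (0.12 ± 0.037, edgeR adjusted p = 0.00723), a call lost in 4 of 6 fits without a library (any 0 h replicate or 48 h replicate 1), with DESeq2 and in the model of all 24 libraries. ID2, at 29.9, 29.0 and 30.8 CPM, was below 0 h (-0.31 ± 0.054, edgeR adjusted p = 2.38e-05), although not in the model of all 24 libraries (edgeR adjusted p = 0.0103). The feedback genes were below 0 h, SMAD6 at 11.7, 11.6 and 11.7 CPM (-0.42 ± 0.078, edgeR adjusted p = 8.18e-05) and SMAD7 at 2.26, 2.25 and 2.74 CPM (-0.94 ± 0.16, edgeR adjusted p = 1.42e-05). SMAD3 fell by 0.13 ± 0.033 on the log2 scale, a call lost without 0 h replicate 2 or 3 (edgeR adjusted p = 0.0132 and 0.0147), and TGFB1 (-0.12 ± 0.039) did not pass. In all, 6 of 7 genes were called, 2 higher and 4 lower, against 38.7% of genes tested (19.1% higher, 19.5% lower).

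**Figure D3:**
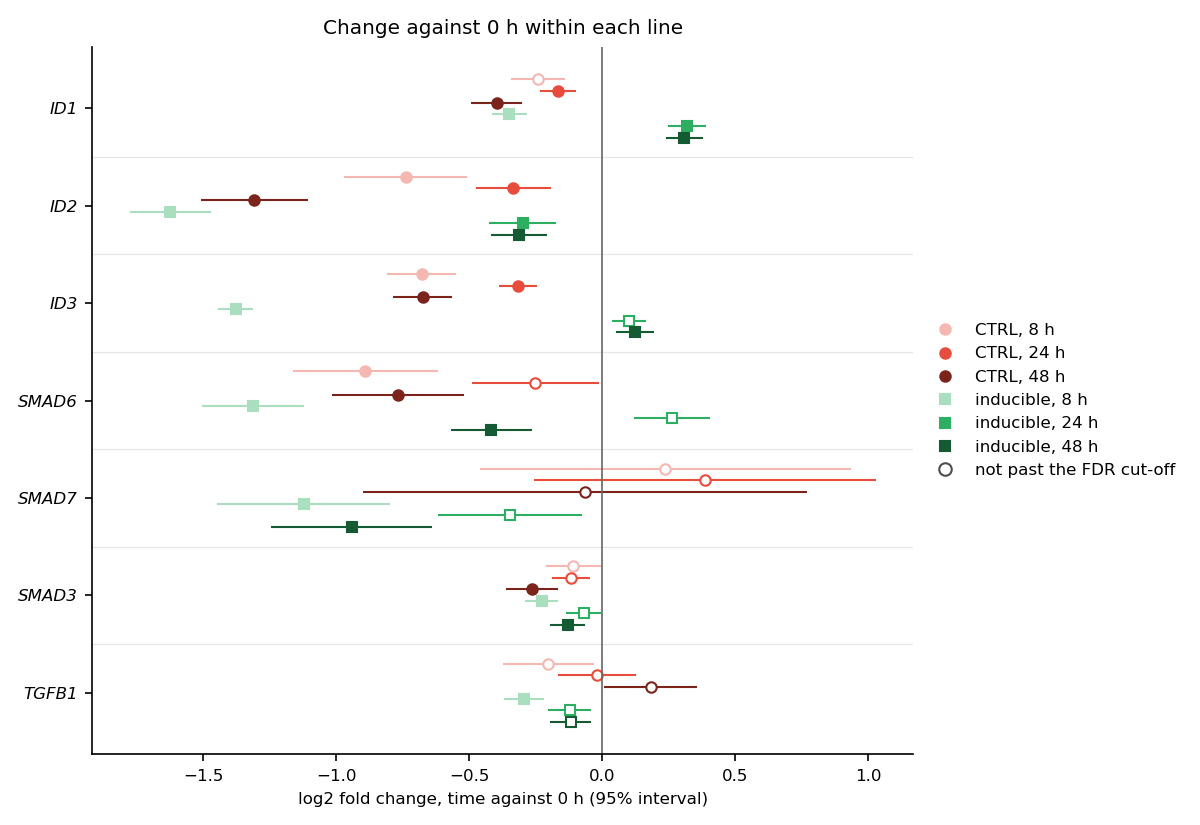
Log2 fold change of each time against 0 h (x axis) within CTRL cells (circles, red shades) and C/EBPδ-inducible cells (squares, green shades) for the 7 tested genes (y axis), with 95% normal intervals from the edgeR standard error; open symbols did not pass the FDR cut-off. ID2 and ID3 at 8 h lie furthest left in inducible cells (-1.62 and -1.38), and ID1 in inducible cells lies at 0.32 and 0.31 at 24 and 48 h.

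Whether the lines changed differently was tested as the interaction of line and time, the change in inducible cells minus the change in CTRL cells. These values share the 0 h libraries of each line and are given side by side. At 8 h the fall was deeper in inducible cells for ID2 (-0.85 ± 0.16, edgeR adjusted p = 0.00482) and ID3 (-0.67 ± 0.076, edgeR adjusted p = 1.10e-04). The ID2 call was lost in 9 of 12 fits that left out a library (edgeR adjusted p of up to 0.018), all but those without CTRL 0 h replicate 1, CTRL 8 h replicate 1 or CTRL 8 h replicate 3. For ID1 the difference was -0.08 ± 0.060 and did not pass. SMAD7 had the largest estimate (-1.34 ± 0.37), which did not pass either (edgeR adjusted p = 0.0461), and its CTRL libraries held at most 16 counts at these times. The count of 2 of 7 compares with 1.66% of all genes called (0.887% higher, 0.77% lower).

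At 24 h the difference was above 0 for ID1 (0.49 ± 0.049, edgeR adjusted p = 1.10e-07) and ID3 (0.42 ± 0.049, edgeR adjusted p = 8.47e-07), whose log2 changes from 0 h were 0.32 and 0.10 in inducible cells and -0.17 and -0.32 in CTRL cells. ID2 did not differ beyond its error (0.04 ± 0.11). SMAD6 had a log2 difference of 0.52 ± 0.14 that missed the cut-off (edgeR adjusted p = 0.015). Of all genes, 5.84% were called (2.86% higher, 2.98% lower), against 2 of 7 here. At 48 h all 3 expressed ID genes passed, with 0.70 ± 0.059 for ID1, 0.99 ± 0.12 for ID2 and 0.79 ± 0.068 for ID3 (edgeR adjusted p at most 1.08e-05), and no other member did, against 5.54% of all genes (2.83% higher, 2.72% lower). ID2 at 48 h was below 0 h in both lines. Its group means went from 27.4 to 11.1 CPM in CTRL cells and from 36.8 to 29.9 CPM in inducible cells. ID1 and ID3 were below 0 h in CTRL cells and above it in inducible cells, where the ID3 call did not hold in every fit. The called differences of the ID genes at 24 and 48 h passed in each fit without one library and in each other setting. SMAD7 (-0.88 ± 0.42), SMAD6 (0.34 ± 0.13), SMAD3 (0.13 ± 0.056) and TGFB1 (-0.31 ± 0.090, edgeR adjusted p = 0.0327) did not pass at 48 h.

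The step from 8 to 24 h was compared after the values had been seen. In inducible cells all 7 genes were higher at 24 h than at 8 h, with log2 changes of 1.57 ± 0.10 for SMAD6, 1.47 ± 0.038 for ID3, 1.31 ± 0.097 for ID2, 0.77 ± 0.18 for SMAD7, 0.66 ± 0.035 for ID1, 0.17 ± 0.043 for TGFB1 and 0.15 ± 0.035 for SMAD3. Of all genes, 29.6% were called (14.3% higher, 15.2% lower). The calls of TGFB1 and SMAD3 were lost in 3 and 2 of 6 fits without a library, which for TGFB1 are those without 8 h replicate 1 or 3 or 24 h replicate 1 and for SMAD3 those without 8 h or 24 h replicate 3 (edgeR adjusted p of up to 0.0402 and 0.0148), and that of TGFB1 also with DESeq2 and in the model of all 24 libraries. In CTRL cells only ID3 passed (0.37 ± 0.064, edgeR adjusted p = 0.00656), against 2.44% of all genes called (1.07% higher, 1.38% lower), and this call was lost in 4 of 6 fits without a library (CTRL 8 h replicate 2 or any 24 h replicate). The step was larger in inducible than in CTRL cells for ID3 (1.10 ± 0.076), SMAD6 (0.91 ± 0.19), ID2 (0.89 ± 0.16) and ID1 (0.57 ± 0.055), 4 of 7 genes against 3.07% of all genes (1.14% higher, 1.92% lower). The SMAD6 value did not pass in 9 of 12 fits without a library (edgeR adjusted p of up to 0.0345), all but those without CTRL 8 h replicate 1 or 3 or inducible 24 h replicate 2, and the ID2 value did not pass without inducible 8 h replicate 2 (edgeR adjusted p = 0.0112).

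**Figure D4:**
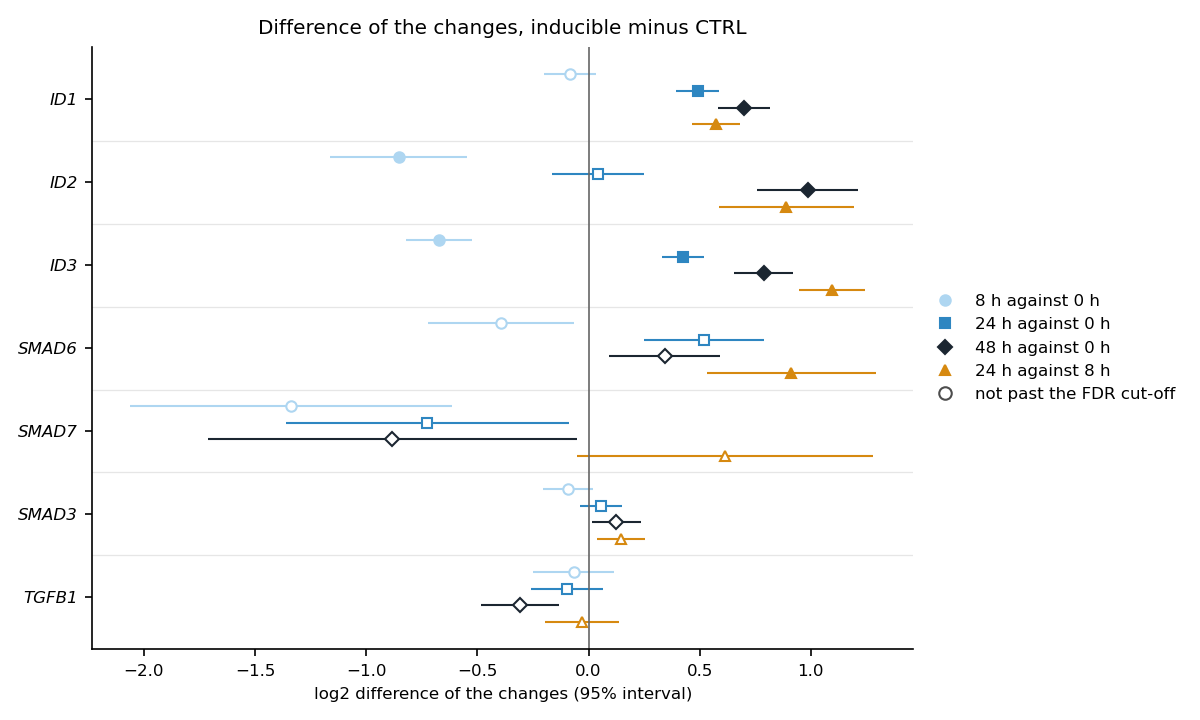
Difference of the log2 changes, C/EBPδ-inducible minus CTRL cells (x axis), for the 7 tested genes (y axis) at 8, 24 and 48 h against 0 h and for 24 h against 8 h, with 95% normal intervals from the edgeR standard error; filled symbols passed the FDR cut-off. ID3 moves from -0.67 at 8 h to 0.42 at 24 h and 0.79 at 48 h, and the intervals of SMAD7 are the widest.

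The order of the 8 groups differed by gene. For ID1 the highest groups were inducible cells at 48 and 24 h (medians of 151 and 149 CPM), whose libraries overlap, followed by untreated CTRL cells (142 CPM), and the lowest was inducible cells at 8 h (94.3 CPM). ID3 was highest in inducible cells at 48 h (212 CPM), which overlaps 24 h (209 CPM), and lowest in inducible cells at 8 h (77.4 CPM), below both CTRL cells at 8 h (102 CPM) and at 48 h (107 CPM), which overlap each other. ID2 was highest in untreated inducible cells (36.4 CPM), and inducible cells at 48 and 24 h and untreated CTRL cells followed with overlapping neighbours. Its lowest groups, inducible cells at 8 h (13.0 CPM) and CTRL cells at 48 h (11.0 CPM), overlap. For SMAD6 the first 3 places were inducible cells at 24, 0 and 48 h (19.1, 15.6 and 11.7 CPM) without overlap, while inducible cells at 8 h (6.66 CPM) overlapped CTRL cells at 0 and 24 h. For SMAD7, SMAD3 and TGFB1 every inducible group was above every CTRL group. Within CTRL cells the 4 groups of SMAD7 each overlap their neighbours.

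Per kb of GENCODE exon, ID3 and ID1 were the most abundant of the 9 transcripts. ID3 had group means between 51.0 and 144.5 CPM per kb and ID1 between 76.8 and 122 CPM per kb. TGFB1 followed in inducible cells, with 22.1 to 27.0 CPM per kb against 5.54 to 7.38 in CTRL cells. SMAD3 had 10.8 to 16.6 CPM per kb and ID2 5.02 to 16.65 CPM per kb. SMAD6 (0.42 to 2.16 CPM per kb) and SMAD7 (0.15 to 1.16 CPM per kb) were far lower, and TGFB2 did not exceed 0.0674 CPM per kb in any group.

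ID4, the fourth member of the family, had no counts in most libraries. It had 21 counts in CTRL replicate 3 at 0 h, 13 counts in CTRL replicate 3 at 24 h, 1 count in CTRL replicate 2 at 48 h and 1 count in inducible replicate 2 at 48 h, and 0 in all other libraries, where 3 counts correspond to at most 0.236 CPM. The 2 libraries with more than 3 counts are both CTRL libraries with the replicate number 3, at 1.10 and 0.606 CPM, and the other replicates of their groups were at 0.

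The tested genes fall into patterns that follow line and time to unequal degrees. Over the 24 libraries, Pearson's r of log2 CPM was 0.88 between ID1 and ID3, 0.90 between ID2 and ID3 and 0.77 between ID1 and ID2. It was 0.92 between SMAD7 and SMAD3, 0.92 between SMAD7 and TGFB1 and 0.90 between SMAD3 and TGFB1, genes that all differ between the lines. SMAD6 had 0.56 with ID1, 0.77 with ID2 and 0.79 with ID3. With SMAD7, SMAD3 and TGFB1 it had 0.84, 0.91 and 0.82. The libraries share their groups, and once group means were removed, r was 0.27 for ID1 and ID3, -0.35 for ID2 and ID3 and 0.11 for ID1 and ID2. For SMAD7 and SMAD3 it was 0.32, for SMAD7 and TGFB1 -0.08 and for SMAD3 and TGFB1 -0.15. SMAD6 then had 0.10 with ID3 and 0.16 with SMAD3.

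Among 17023 genes, the gene most like ID1 over the 24 libraries was ID3 (r = 0.883), followed by NAB2 (0.873), a corepressor of EGR factors, and RPLP1 (0.869), a ribosomal protein gene. For ID2 the first 3 were the linker histone gene H1-2 (0.911), ID3 (0.901) and PLAC8 (0.897), and for ID3 they were MARCKSL1 (0.966), RPLP1 (0.951) and GATA2-AS1 (0.922). SMAD6 was most like H1-3 (0.965), GGA2 (0.956) and RPA1 (0.955), which encodes a single-strand DNA-binding protein, and SMAD7 most like WWC2 (0.949), the histone gene H2BC8 (0.947) and the retinoic acid hydroxylase gene CYP26B1 (0.944). SMAD3 was most like the cell cycle factor gene E2F2 (0.974), BAMBI (0.967), a decoy receptor of the same pathway, and MLPH (0.965). TGFB1 was most like ENSG00000254187 (0.991), ADGRL3 (0.99) and ITGBL1 (0.99). For TGFB2 the highest values were 0.716 (C12orf76), 0.585 (XBP1P1) and 0.569 (SNORA38), from a gene near the floor. These coefficients describe 24 libraries that share 8 groups.

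A list of 64 other genes of the pathway, sorted into ligands, receptors, SMADs, regulators, response genes and E proteins, shows the surroundings of the 9. Between the untreated lines, 22 of 50 tested list genes were higher in inducible cells and 12 lower, against 20% and 23.9% of all genes tested, with a median log2 difference of 0.14 against 0.01 over all genes. All 5 called ligands were higher, among them GDF15 (2.07 ± 0.26), a divergent member of the family, and BMP6 (1.96 ± 0.14), a BMP ligand. Of 18 tested regulators 11 were higher and 3 lower, BAMBI, which damps receptor signalling, by 2.08 ± 0.16 and NOG, the extracellular BMP antagonist noggin, by -2.67 ± 0.12. The receptors gave 2 higher and 3 lower, and the largest difference of the list was that of ENG, the endoglin co-receptor, at 26.0 CPM in CTRL and 0.945 CPM in inducible cells (-4.81 ± 0.13). Of the 5 SMADs of the list 0 were higher and 3 lower. Of 8 tested response genes 3 were higher and 3 lower, and of 2 tested E proteins 1 was higher and 0 lower. MSX2, a homeobox target of BMP signalling, was among the lower response genes (-2.25 ± 0.13). Both lines held TGFBR1 (63.6 CPM in CTRL and 36.4 CPM in inducible cells at 0 h). They also held BMPR1A (38.5 and 41.7 CPM), BMPR2 (66.4 and 64.2 CPM) and SMAD4 (76.7 and 54.1 CPM). TGFBR2, the receptor that binds TGF-β first, was low, at 0.324 and 1.12 CPM. Those means rest on 1 to 10 counts per CTRL library and 5 to 39 counts per inducible library, ranges that overlap. Of the E proteins that ID proteins pair with, TCF3 was at 248 and 280.2 CPM and TCF12 at 84.5 and 81.3 CPM, and TCF4 was near 0.

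With doxycycline for 24 h, CTRL cells had 0 list genes higher and 3 of 49 lower, that is 6.12% of the list against 6.06% of all genes called, a share near the background. The 3 were SMURF2 (-0.29 ± 0.033), a ubiquitin ligase for SMADs and receptors, the co-receptor gene TGFBR3 (-0.17 ± 0.041) and TSC22D1 (-0.14 ± 0.031), a TGF-β-stimulated gene. In inducible cells 7 of 51 were higher and 9 lower, against 7.33% and 8.14% of all genes. GDF15 rose from 2.70 to 7.64 CPM (1.50 ± 0.13), INHBB, an activin subunit, from 1.01 to 2.17 CPM (1.13 ± 0.26) and CDKN1A, the cell cycle inhibitor p21, from 14.2 to 25.9 CPM (0.87 ± 0.070). TGFBI, a TGF-β-induced matrix gene, fell by 1.23 ± 0.17, TGFB3, another TGF-β ligand, by 1.14 ± 0.13 and NOG by 1.01 ± 0.21 on the log2 scale. Of 18 tested regulators 2 were higher and 6 lower, and none of the 5 SMADs or the 2 tested E proteins passed.

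In the interaction at 24 h, 5 of 51 list genes were higher and 4 lower, against 2.86% and 2.98% of all genes. CDKN1A (0.94 ± 0.16), the immediate-early factor JUNB (0.64 ± 0.094) and NEDD4L (0.51 ± 0.071), a ubiquitin ligase for SMADs, led the first. TGFB3 (-1.35 ± 0.20), PMEPA1 (-0.61 ± 0.088), an inhibitor of SMAD signalling, and LTBP2 (-0.48 ± 0.087), of the latent TGF-β binding family, led the second. None of the 5 SMADs of the list passed in this test, and 3 of 9 response genes were higher. The list was assembled with earlier results of these data known, so that its counts describe the list.

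**Figure D5:**
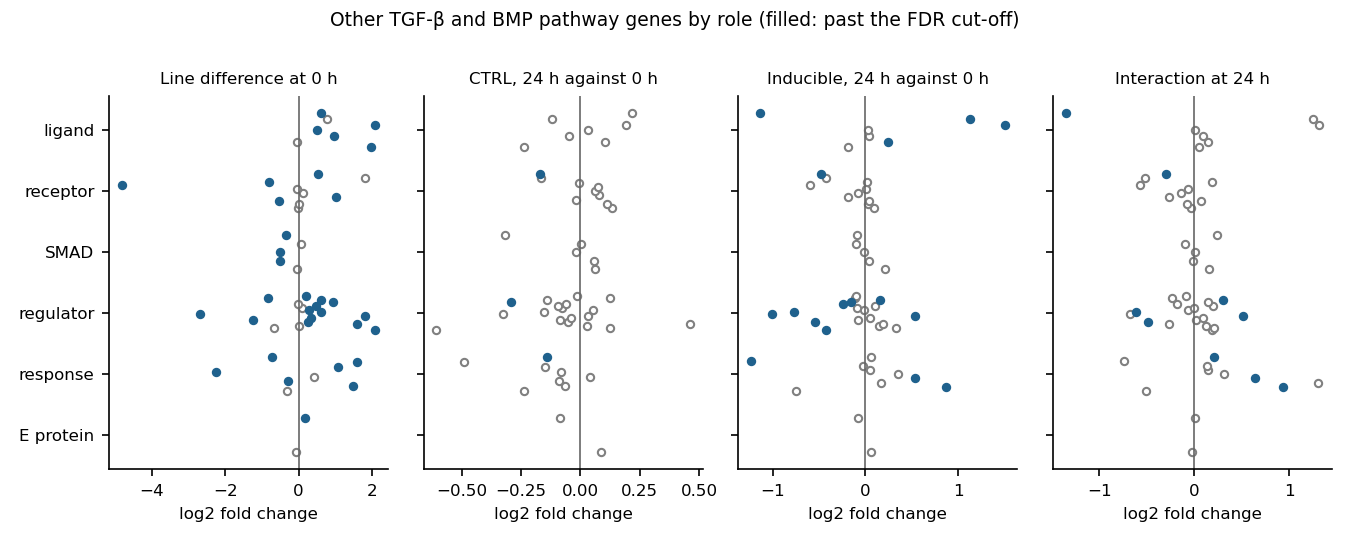
Log2 fold changes (x axes, each with its own range) of the tested genes of the 64-gene pathway list by role (y axis), for the untreated lines, for 24 h against 0 h in CTRL and in C/EBPδ-inducible cells, and for the interaction at 24 h. Filled points passed the FDR cut-off: 34 of 50, 3 of 49, 16 of 51 and 9 of 51, where 43.9%, 6.06%, 15.5% and 5.84% of all genes were called, and ENG at -4.81 is the lowest point of the first panel.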

How the data were processed

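RNA sequencing of ribosome-depleted RNA was analysed for 24 libraries of CTRL and C/EBPδ-inducible MIA PaCa-2 cells. The authors trimmed 50-base reads with Trimmomatic, mapped them with Hisat2 (build GRCh38) and assigned them to Ensembl genes with HTSeq, and the deposited values are raw whole-number counts without normalization or pooling. The strand setting is not given in the sources used here, and the tool versions in the submitters' processing notes (Trimmomatic 0.36, HISAT2 2.3.4.3) differ from those in the study's methods.

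Counts were scaled with TMM factors, filtered with filterByExpr and compared by edgeR 4.0.16 (quasi-likelihood test, R 4.3.3), with only the groups compared in each fit. P values were two-sided and adjusted by the Benjamini-Hochberg method over all genes tested, with a cut-off at FDR 0.01. The edgeR standard error given here was derived from the test, as the absolute log2 fold change divided by the square root of its F statistic. The normal intervals built on it do not allow for the small number of libraries. Floors cover counting error only, and an exact permutation test of 3 against 3 libraries could not go below p = 0.1. The tests were also run on simulated counts with a fixed dispersion and changes of a fixed size. Those counts do not mirror the unequal spread between the replicates here. Gene models came from GENCODE release 44 and promoters from RefSeq, with all 9 genes matched. The comparison of 24 h with 8 h was chosen after the values were seen. Alternatives were DESeq2 1.42.0, no filter on low counts, at least 10 counts in every library, upper-quartile scaling, one model for all 24 libraries, a replicate block, and leaving out each library. Same-numbered libraries deviated together in all 3 pairs (mean r 0.174, 0.179 and 0.251) in CTRL 24 h against 0 h and in no other comparison.

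All 9 genes are described throughout. Of the 64 pathway genes, the 3 with the largest called change in each direction and fixed receptors, SMAD4 and E proteins were named, as were the 3 genes most like each member. The members and lists were chosen with earlier results of these data known.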

Additional observations from a re-analysis of the deposited data

Results flagged for a closer look

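The changes of 4 genes over time differed between C/EBPδ-inducible and CTRL cells in the interaction test of edgeR, and these differences, inducible minus CTRL on the log2 scale, are the results marked for a closer look. At 8 h against 0 h they were -0.85 for ID2 and -0.67 for ID3. At 24 h against 0 h they were 0.49 for ID1 and 0.42 for ID3. At 48 h against 0 h they were 0.70 for ID1, 0.99 for ID2 and 0.79 for ID3. A value above 0 need not be a rise in inducible cells, since ID2 at 48 h was below 0 h in both lines. At 24 h against 8 h, compared after the values had been seen, they were 0.57 for ID1, 0.89 for ID2, 1.10 for ID3 and 0.91 for SMAD6. ID3 is the gene that passed at 8, 24 and 48 h against 0 h, with a sign at 8 h opposite to that at 24 and 48 h. The comparison of 24 h with 8 h uses the same 8 h and 24 h libraries. Its value is close to the 24 h difference minus the 8 h difference. It therefore restates the opposite signs of ID3 and is not a further test of them. The tests at 8, 24 and 48 h share the 0 h libraries. ID2 at 8 h and SMAD6 at 24 h against 8 h each lost their call in 9 of 12 fits without a library. ID2 at 24 h against 8 h lost its call in 1 of 12, and the other values passed in every such fit.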

How the results depend on the processing

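The count of called genes among the 9 was within 1.5 times its reported value in most settings, and the direction of no called log2 fold change turned under any setting. In CTRL cells at 8 h against 0 h the reported count of 3 became 5 without a filter on low counts (ID1 and ID4 added, the latter not among the 7 tested otherwise and with 21 counts in CTRL replicate 3 at 0 h and none in the other 5 libraries), 1 with the replicate block, and between 1 and 4 when a library was left out. In CTRL cells at 24 h against 0 h the count of 3 fell to as few as 1 without one library (range 1 to 3). In inducible cells at 24 h against 0 h the count of 2 became 4 without the filter (ID3 and SMAD6 added) and 1 in the model of all 24 libraries (ID2 lost). The interaction at 8 h ranged from 1 to 2 without one library. In CTRL cells at 24 h against 8 h the count of 1 became 3 without the filter and 3 in the model of all 24 libraries, 0 with upper-quartile scaling, 0 with the replicate block, and 0 to 2 without one library. The interaction of 24 h against 8 h ranged from 2 to 4 without one library, with 2 where inducible 8 h replicate 2 was left out. The cause was not tested.

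Of 558 single values with a library left out, 52 lost a reported call, and of 459 values under the other settings 12 did. Both totals also hold the interaction at 24 h of ID2, SMAD6, SMAD7, SMAD3 and TGFB1, which had no call to lose. With upper-quartile scaling SMAD3 at 48 h in inducible cells (-0.10, edgeR adjusted p = 0.0125) and ID3 in CTRL cells at 24 h against 8 h (0.34, edgeR adjusted p = 0.0126) were lost, and DESeq2 lost ID3 at 48 h (adjusted p = 0.0137) and TGFB1 at 24 h against 8 h (adjusted p = 0.0105) in inducible cells. The replicate block removed ID2 (-0.74, edgeR adjusted p = 0.0327) and SMAD6 (-0.89, edgeR adjusted p = 0.0179) in CTRL cells at 8 h and ID3 (0.37, edgeR adjusted p = 0.0115) in CTRL cells at 24 h against 8 h, and it changed no other call. Libraries with the same number are not stated to belong together. Depth limited SMAD7, with 5 to 17 counts per CTRL library, as well as ID4 and TGFB2.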
